A study of Mus musculus with 19 samples.

Results

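Interferon-stimulated genes are the genes that cells switch on after interferon binds its receptor, and 36 of them were followed here through mouse skin tumours and normal skin. Members were the rows of the deposited gene table whose Ensembl identifier maps to a fixed list of 36 symbols, and all 36 were found among the 34807 genes of the table. The rule itself uses no expression value. All 36 also had at least 5 counts in at least 1 library and so stayed in the tests, which covered 32031 genes.

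The libraries came from bulk poly(A) RNA of squamous cell carcinomas and of whole skin, 1 library per sample, all from female mice. In the tumour models a BRAFV600E allele was switched on in mice 7 to 20 weeks old by Cre recombinase that tamoxifen activates. The enzyme was under the Ivl promoter, active in differentiating keratinocytes (Ivl:BRAFV600E, n = 6), or under the Krt5 or Krt14 promoter of basal keratinocytes (K5:BRAFV600E, n = 5, and K14:BRAFV600E, n = 4). Normal skin (WT, n = 4) came from control littermates. Per the methods of the study, tamoxifen was put on shaved back skin of Ivl mice and 4-hydroxytamoxifen on that of K5 and K14 mice. Ivl tumours arose at several body sites and K5 and K14 tumours on the back. The paper also reports a longer time to tumour onset and slower growth for Ivl tumours. Promoter, agent, site, time to onset and growth therefore cannot be told apart between these groups. Nothing in the labels ties libraries to single animals or cultures beyond their replicate numbers, and p-values measure the spread between these samples.

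Total counts per library ran from 45715309 to 72609771. Ivl tumours 1, 2 and 3 and K5 tumour 1 stood apart as a set. For most genes their joint mean lay very close to that of the other 15 libraries, more often than for any other set of 4. The means were taken over counts set against library totals, without further scaling. The log2 ratio of these means was under 0.1 in size for 96.6% of 13954 genes, against 64.1% for the next of 3876 sets of 4. Of the 36 interferon-stimulated genes, 35 lay within that window. The cause of this match was not tested. The deposited counts carry a batch adjustment made by the authors, and the labels do not say which library belonged to which batch. Results are given first with all 19 libraries and then with the 15 libraries outside this set of 4. Levels are in CPM, which sets each count against its library total after scaling by the trimmed mean of M values (TMM). Differences are log2 fold changes with their standard error (SE) from edgeR's quasi-likelihood test, and a gene counted as higher or lower when its adjusted p over all genes tested was under 0.05.

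Interferons are secreted proteins that alert cells to viral and other foreign nucleic acid. Type I interferons act through IFNAR1 and IFNAR2 and the kinases JAK1 and TYK2, which lead to phosphorylation of STAT2. STAT2 acts in a complex with IRF9 that binds the interferon-stimulated response element (ISRE) in the promoters of its target genes. Interferon gamma acts through IFNGR1 and IFNGR2, and genes it induces can carry the gamma-activated site (GAS). The induced genes encode sensors of viral RNA and DNA, factors that amplify the response, proteins that block viral replication, and chemokines and ligands that act on T cells. In skin, keratinocytes, fibroblasts and resident immune cells can all respond to interferon.

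Promoter sequence (RefSeq, GRCm38.p6, from 250 bases before to 50 bases after the start of transcription) was at hand for 27 of the 36 members. The ISRE core GAAANNGAAA, searched on both strands, was present in 14 of these 27 (51.9%), against 3.44% of all 32851 promoters searched. The GAS letters TTCNNNGAA were present in 5 of 27 (18.5%), against 8.3% of all promoters. Windows with 25 bases on either side of the matches are shown for members from several roles, 5′ to 3′ on the strand of the gene, with the matches in capitals. Isg15 is on the minus strand at chr4:156200850-156200921, Ifit1 on the plus strand at chr19:34640760-34640838, Gbp2 on the plus strand at chr3:142620579-142620638, Bst2 on the minus strand at chr8:71537562-71537627, Stat2 on the plus strand at chr10:128270251-128270310 and Irf1 on the plus strand at chr11:53769899-53769957. The capitals mark ISRE cores in all but Irf1, where they mark GAS letters.
Isg15: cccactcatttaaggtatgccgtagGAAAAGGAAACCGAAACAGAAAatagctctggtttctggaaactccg
Ifit1: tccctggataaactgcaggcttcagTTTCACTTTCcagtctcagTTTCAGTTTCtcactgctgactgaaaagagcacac
Gbp2: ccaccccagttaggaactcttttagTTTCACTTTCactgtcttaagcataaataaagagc
Bst2: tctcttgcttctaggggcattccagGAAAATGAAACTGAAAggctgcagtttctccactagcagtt
Stat2: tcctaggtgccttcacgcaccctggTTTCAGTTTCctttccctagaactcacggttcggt
Irf1: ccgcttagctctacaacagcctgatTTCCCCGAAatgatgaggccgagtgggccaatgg
Isg15, with 3 overlapping ISRE cores, was the member that was higher in K5/K14 tumours over all 19 libraries. Ifit1 and Bst2, with 2 cores each, did not pass there. Gbp2 and Stat2, with 1 core each, were lower, and so was Trim30a, with cores at bases -36 and 3. Ifih1 and Ddx58, also with 1 core each, were lower too. Cxcl10, Oas3 and Rsad2, with 1 core each, did not pass, and neither did Ifit3, Gbp3 and Oas1a, with 2 each. Whether the number of cores goes with direction was not tested. Of the 14 members with an ISRE core in the window, 4 were lower in Ivl tumours and 5 in K5/K14 tumours over all 19 libraries. Among the 13 without it, 1 and 3 were lower, and of all genes 15.5% and 38.9% were. In the 15 libraries outside the set of 4 described above, 7 of 14 and 6 of 13 were lower in Ivl tumours, and 7 of 14 and 4 of 13 in K5/K14 tumours. Of all genes 32.7% and 42.3% were lower in these tumours over the 15 libraries. Whether members with and without the core differed was not tested. A match is a run of letters and not a measured binding site.

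Per length of exon, Bst2, an antiviral membrane protein (tetherin), had the highest mean level of the members in normal skin (7.96 CPM per kb) and in K5/K14 tumours (10.5). In Ivl tumours it came next to Ifi35, a cytoplasmic interferon-induced protein (6.91 for Bst2 and 7.30 for Ifi35). Ifi35 was second in K5/K14 tumours at 7.44. Irf9 came next in both tumour groups, at 4.12 in Ivl tumours and 5.0 in K5/K14 tumours, while Gbp2 was second in skin at 7.55. Ifi44 was the lowest member per length in skin (0.204) and in Ivl tumours (0.116). Mean CPM of the members, not scaled for length, had a median of 5.19 in skin, 3.18 in Ivl tumours and 3.72 in K5/K14 tumours.

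**Figure D1:**
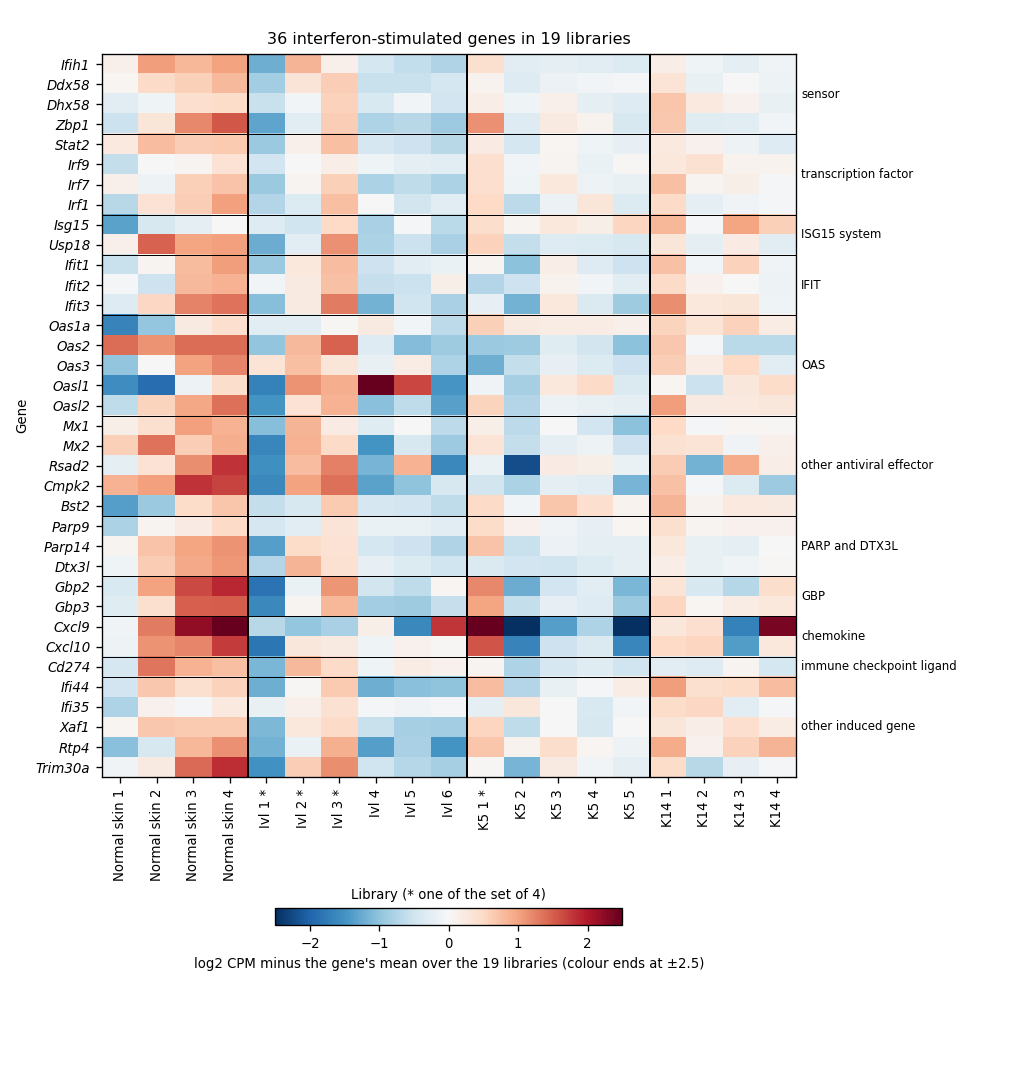
Heat map of log2 CPM minus the mean of each gene over the 19 libraries, with genes in rows grouped by role and libraries in columns grouped by tissue; an asterisk marks the set of 4 libraries. Normal skin 4 and Ivl 3 are red over most rows and Ivl 1 is blue over most rows. Oasl1 in Ivl 4 and Cxcl9 in skin 4, K5 1 and K14 4 are the darkest red cells.

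Members moved together within a group, so that whole libraries were high or low. Skin 1 had the lowest level of the 4 skin libraries for 32 of the 36 members, and skin 4 the highest for 26. Among Ivl tumours, Ivl 1 was lowest for 26 members and Ivl 3 highest for 25, and Ivl 1 was the lowest of all 15 tumours for 24. Among K14 tumours, K14 1 was highest for 25 members, and among K5 tumours, K5 1 was highest for 23 and K5 2 lowest for 20. Averaged over the 36 members, log2 CPM relative to the mean over all libraries was -0.321, 0.349, 0.820 and 1.03 in the 4 skin libraries. The tumours ranged from -0.981 in Ivl 1 to 0.620 in Ivl 3, within the range of skin at its upper end and below it at its lower end. Ivl 1, Ivl 3 and K5 1 are of the set of 4, whose joint mean lay close to that of the other 15 libraries. Outside that set the tumours ranged from -0.636 in K5 2 to 0.506 in K14 1, and Ivl 4, 5 and 6 were at -0.447, -0.384 and -0.566.

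Markers of other cells moved with part of this order. The summed CPM of 9 macrophage and monocyte markers was 167, 104, 1060 and 1370 in skin 1 to 4, and 884 in Ivl 3 against 117 to 342 in the other Ivl tumours. Fibroblast markers summed to 2530, 736, 10100 and 14100 in skin, and to 7750 in Ivl 3 against 1020 to 2760 in the other Ivl tumours, and endothelial markers to 62.6, 81.2, 345 and 404 in skin. The macrophage and fibroblast sums were lower in skin 2 than in skin 1, unlike the members. K5 1, high for the members, had a macrophage sum of 447, below the 532 and 510 of K5 3 and K5 4. Its fibroblast sum (10500) and endothelial sum (367) were the highest of the K5 tumours. K14 1, high among K14 tumours, had their highest macrophage sum (461) and fibroblast sum (8410), but not their highest endothelial sum. The sum of 7 dendritic and Langerhans cell markers was 16.6, 24.3, 63.2 and 84.6 in skin and 10.3 to 49.7 in all tumours. In K5/K14 tumours 5 of these 7 were lower over all 19 libraries, where 38.9% of all genes were. Keratinocyte markers summed to 5220 to 10700 in skin and 31400 to 98000 in tumours, neutrophil markers to 11.3 to 53.8 and 109 to 6700, and skeletal muscle markers to 2220 to 6800 and 4.72 to 4040. In tumours the neutrophil sum was mostly S100a8 and S100a9 (96.4 to 6550), which keratinocytes also express. The other 5 markers summed to 3.03 to 30.3 in skin and 12.6 to 494 in tumours. Of the 7 markers, 5 were higher in each kind of tumour over all 19 libraries and 0 were lower. Of all genes, 20.4% were higher in Ivl and 23.2% in K5/K14 tumours. Ly6g, a defining neutrophil marker, was 0 CPM in skin and at most 0.28 in tumours. In bulk RNA, fewer cells of a type and less RNA per cell cannot be told apart, and the part of cell composition in the results that follow was not tested.

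The comparison of tumours with normal skin asked which members differed once a tumour had formed. In Ivl tumours 9 of the 36 members were lower and 1 was higher than in skin over all 19 libraries. That is 25% lower, against 15.5% of all genes tested (percent called), and 2.78% higher, against 20.4% of all genes. The median log2 fold change of the members was -0.74, against -0.46 over all genes, and 32 of 36 (88.9%) were below 0, against 62.2% of all genes. The count rested on single libraries: without skin 2, 3 or 4 it was 3 members (8.33%, against 10.2% to 12.6% of all genes), without Ivl 4, 5 or 6 it was 2 (5.56%, against 9.87% to 9.99%), and without Ivl 3 it was 20 (55.6%, against 24.8%). The share of lower members was thus above that of all genes in some of these fits and below it in others. No member had every Ivl tumour below every skin library, which 9.01% of all genes did. Over the 15 libraries 20 members were lower (55.6%, against 32.7% of all genes) and 1 was higher (2.78%, against 22.2%), with a median of -1.12 against -0.66. In 18 members (50%, against 35.5% of all genes) the 3 remaining Ivl tumours then lay below all 4 skin libraries, a separation that is easier to reach with 3 tumours than with 6.

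In K5/K14 tumours 13 members were lower than in skin (36.1%, against 38.9% of all genes) and 1 was higher (2.78%, against 23.2%). The share of lower members was thus close to that of genes at large, and the median of -0.64 was close to the -0.60 of all genes. Every K5/K14 tumour lay below every skin library for Oas2, Mx2 and Cmpk2 (8.33% of members, against 24.6% of all genes). Within the 15 libraries 17 members were lower (47.2%, against 42.3%) and 1 was higher (2.78%, against 23.9%). The same 3 members did not overlap with skin there (8.33%, against 28.2%), and the median was -0.63 against -0.64. Ivl tumours and K5/K14 tumours were compared with the same 4 skin libraries, so their results share that side.

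The share of higher and lower genes depended on the scaling. With DESeq2 size factors in place of TMM, 5712 genes were higher and 6828 lower in Ivl tumours, in place of 6535 and 4980, and the median of all genes moved from -0.46 to -0.59. Lower members then numbered 16 in Ivl tumours (44.4%, against 21.3% of all genes) and 15 in K5/K14 tumours (41.7%, against 42.8%). Among protein-coding genes alone 17 of 35 members were lower in Ivl tumours (20.6% of those genes were) and 15 of 35 in K5/K14 tumours (36.9%).

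**Figure D2:**
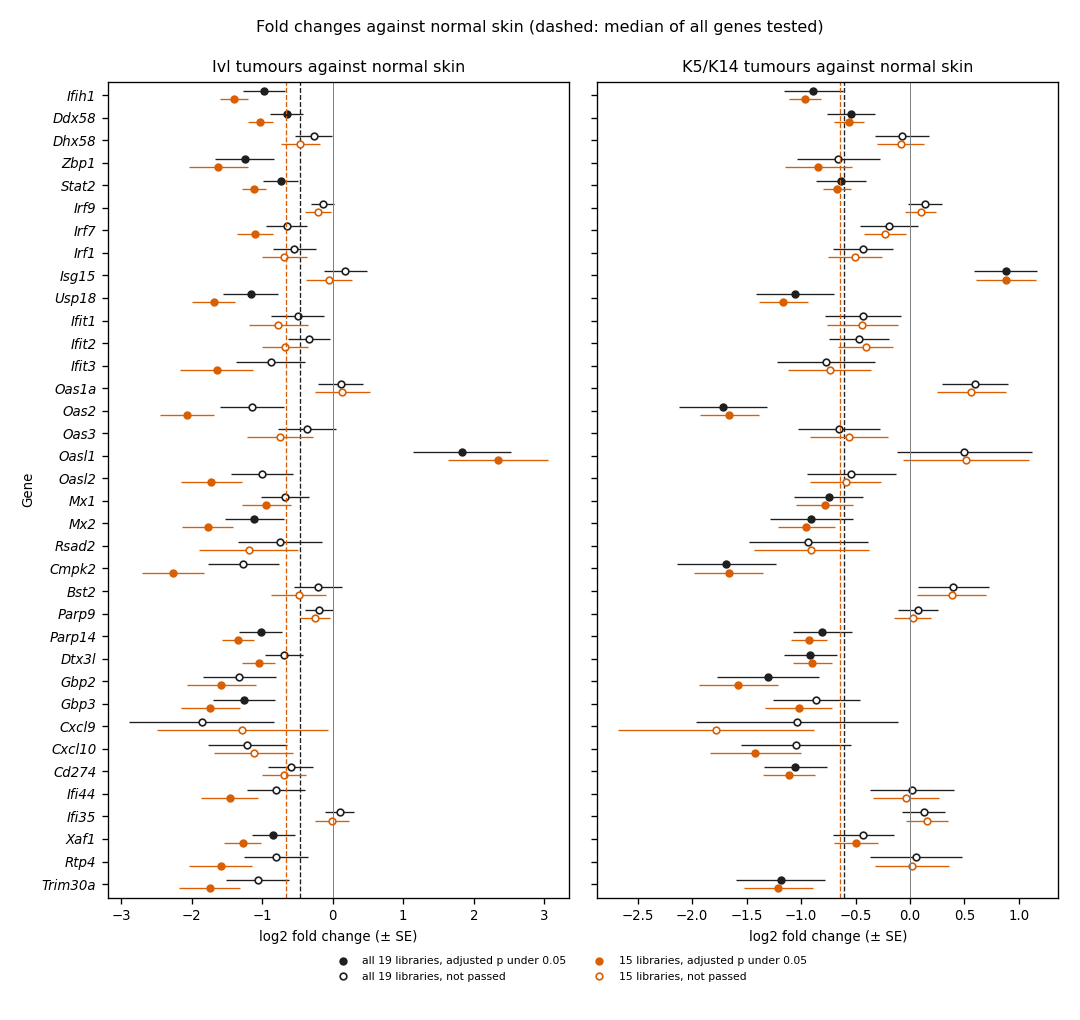
Log2 fold change against normal skin (x axis, ± SE) of each member (rows) in Ivl tumours (left) and K5/K14 tumours (right), over all 19 libraries (black) and the 15 libraries (orange); filled points had an adjusted p under 0.05 and dashed lines mark the median of all genes tested. Most points lie left of 0, with Oasl1 in Ivl tumours and Isg15 in K5/K14 tumours as the filled points to the right.

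Of the 4 sensors, 3 were lower in Ivl tumours (15.5% of all genes were) and 2 in K5/K14 tumours (38.9% of all genes) over all 19 libraries. Ifih1 encodes MDA5, which detects long double-stranded RNA. Its level was 12.5, 23.6, 20.3 and 22.8 CPM in skin, with a lowest, median and highest value of 4.89, 7.88 and 20.6 in Ivl tumours and 8.92, 9.75 and 15.1 in K5/K14 tumours. Skin 1 lay among the tumours, and Ivl 2 among the skin libraries. The log2 fold change was -0.98 ± 0.296 (SE) in Ivl tumours (edgeR adjusted p = 0.015) and -0.89 ± 0.27 in K5/K14 tumours (adjusted p = 0.0086). Over the 15 libraries these were -1.40 ± 0.198 (adjusted p = 3.3e-05) and -0.96 ± 0.148 (adjusted p = 4.6e-05). Without skin 2 the adjusted p in Ivl tumours was 0.053.

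Ddx58, which encodes the RNA sensor RIG-I, had 13.9, 18.6, 20.4 and 23.4 CPM in skin, 7.36, 9.51 and 20.6 (lowest, median, highest) in Ivl tumours and 10.7, 12.8 and 16.9 in K5/K14 tumours. It was lower in both by edgeR (log2 -0.65, adjusted p = 0.039, and -0.54, adjusted p = 0.037), with overlap of groups. Both calls were lost without skin 2, 3 or 4 (adjusted p 0.065 to 0.13), the first also without Ivl 1, 4, 5 or 6 (0.071 to 0.082) and the second without K5 2, 3 or 4 or K14 2 or 4 (0.05 to 0.059). With 15 libraries both held without any single library (log2 -1.03 and -0.56). Zbp1, a sensor of Z-form nucleic acid that can start necroptosis, had 1.6, 2.88, 5.37 and 6.86 CPM in skin and 0.938, 1.41 and 3.58 in Ivl tumours (log2 -1.25 ± 0.416, edgeR adjusted p = 0.026). Its skin libraries spread over a wider range than the Ivl tumours, and the call was lost without skin 3 or 4 or Ivl 4, 5 or 6 (adjusted p 0.051 to 0.11). In K5/K14 tumours Zbp1 did not pass (log2 -0.66, adjusted p = 0.14), and neither did Dhx58, the regulatory relative of these RNA sensors, in either comparison (log2 -0.27 and -0.075).

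Of the 4 transcription factors, only Stat2 was lower over all 19 libraries, in both kinds of tumour. Stat2, a signal transducer of the type I response, had 21.2, 30.7, 27.6 and 28.3 CPM in skin, 9.41, 13 and 30.5 in Ivl tumours and 13.2, 16.8 and 21.2 in K5/K14 tumours. Its log2 fold change was -0.74 (edgeR adjusted p = 0.026) and -0.63 (adjusted p = 0.022), and -1.12 ± 0.171 (adjusted p = 6.9e-05) and -0.67 (adjusted p = 0.00038) over the 15 libraries. Over all 19 the first call was lost without skin 2, 3 or 4 or Ivl 4, 5 or 6 (0.054 to 0.074) and the second without skin 2 (0.07). Irf9, the DNA-binding partner of STAT2, had 16.2, 24.3, 25.8 and 31.5 CPM in skin, 17.7, 21.8 and 27.4 in Ivl tumours and 21.8, 26.1 and 32.8 in K5/K14 tumours. Its 95% intervals were -0.465 to 0.183 and -0.166 to 0.442 on the log2 scale, narrow enough to leave out a 2-fold difference in either direction. Irf7, which drives interferon genes and amplifies the response, passed only in Ivl tumours over the 15 libraries (log2 -1.1, adjusted p = 0.0019). Irf1, a GAS-driven factor of the interferon gamma response, passed in no comparison with skin (log2 -0.54 and -0.43 over 19 libraries).

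The ISG15 system parted in K5/K14 tumours. Isg15, the ubiquitin-like modifier, had 1.08, 2.05, 2.29 and 2.73 CPM in skin and 2.65, 3.7 and 5.37 (lowest, median, highest) in K5/K14 tumours. Only the lowest K5/K14 tumour, K14 2, lay below the highest skin library. It was 1.84-fold higher (log2 0.88 ± 0.29, edgeR adjusted p = 0.014), and 0.88 ± 0.272 over the 15 libraries (adjusted p = 0.010), while without skin 1 the adjusted p was 0.057. In Ivl tumours it ran from 1.55 to 3.86 with a median of 2.05, in the range of skin (log2 0.18, adjusted p = 0.63). Usp18, the protease that takes ISG15 off its targets and restrains the receptor, moved the other way. Its skin levels were 2.51, 6.4, 4.55 and 4.64 CPM, against 1.52 to 3.43 in K5/K14 tumours (log2 -1.05, adjusted p = 0.015) and 0.968 to 5.05 in Ivl tumours (log2 -1.16, adjusted p = 0.026). Both Usp18 calls were lost without skin 2 (0.076 and 0.096), and the one in Ivl tumours also without Ivl 4, 5 or 6 (0.054 to 0.058).

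**Figure D3:**
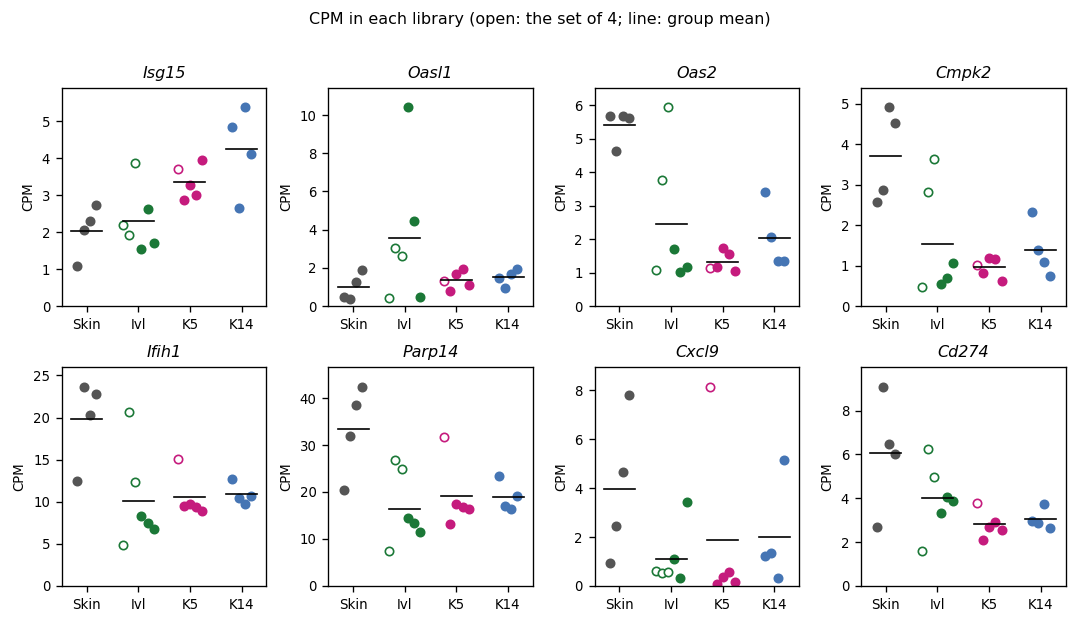
CPM (y axis, linear from 0) of Isg15, Oasl1, Oas2, Cmpk2, Ifih1, Parp14, Cxcl9 and Cd274 in each library by group; open points are the set of 4 libraries and lines are group means. For Oas2 and Cmpk2 the K5 and K14 points lie below all skin points, and for Oasl1 the highest Ivl point, 10.4 CPM, stands far above the rest.

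Enzymes of the OAS family make short oligoadenylates that activate RNase L, an activity that OASL1 lacks. Oas2 had 5.68, 4.64, 5.68 and 5.63 CPM in skin, 1.01, 1.43 and 5.94 in Ivl tumours and 1.06, 1.34 and 3.42 in K5/K14 tumours. All 9 K5/K14 tumours lay below skin, and its log2 fold change of -1.71 ± 0.405 had the smallest adjusted p of the members there (edgeR, 0.0015). Over the 15 libraries it was -1.66 ± 0.271 (adjusted p = 8.4e-05), and the call held without any single library. In Ivl tumours it passed over the 15 libraries (log2 -2.07 ± 0.377, adjusted p = 0.00034) but not over all 19 (-1.15, adjusted p = 0.053). Ivl 2 and Ivl 3, both in the set of 4, had 3.76 and 5.94 CPM, against 1.01 to 1.71 in the other 4 Ivl tumours.

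Oasl1, which holds back translation of Irf7, was the member higher in Ivl tumours. Its level was 0.475, 0.371, 1.28 and 1.89 CPM in skin, and 0.430, 3.04, 2.63, 10.4, 4.47 and 0.501 in Ivl tumours 1 to 6. Thus 4 Ivl tumours exceeded every skin library and the other 2 lay near the lowest. The log2 fold change was 1.83 ± 0.693 (edgeR adjusted p = 0.046) over 19 libraries and 2.35 ± 0.71 (adjusted p = 0.012) over 15. Without Ivl 4 it was 1.13 with an adjusted p of 0.16, and 1.30 with an adjusted p of 0.14 within the 15 libraries. Over all 19 libraries the call was also lost without skin 1, 2 or 3, Ivl 5, K5 1, 3, 4 or 5 or any K14 tumour (0.051 to 0.12). In K5/K14 tumours it lay between 0.785 and 1.94 CPM (log2 0.50, adjusted p = 0.49).

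Oasl2 had the highest CPM of the OAS members, at 3.68, 8.36, 11.2 and 14.8 in skin, 2.03, 3.22 and 10.4 in Ivl tumours and 3.44, 6.66 and 11.7 in K5/K14 tumours. It passed only in Ivl tumours over the 15 libraries (log2 -1.72, edgeR adjusted p = 0.0041). Oas1a and Oas3 passed in no comparison with skin. Oas1a was 0.60 log2 above skin in K5/K14 tumours (adjusted p = 0.089) and Oas3 0.65 log2 below (log2 -0.65, adjusted p = 0.13).

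Among the other antiviral effectors, Cmpk2, a mitochondrial nucleotide kinase, had 2.57, 2.87, 4.91 and 4.53 CPM in skin, 0.461, 0.881 and 3.64 in Ivl tumours and 0.627, 1.1 and 2.33 in K5/K14 tumours. It was below skin in all 9 K5/K14 tumours (log2 -1.69 ± 0.455, edgeR adjusted p = 0.0039, and -1.66 with adjusted p = 0.00029 over 15 libraries) and the call held without any single library. In Ivl tumours it was -1.27 (adjusted p = 0.056) over 19 libraries and -2.26 ± 0.441 (adjusted p = 0.00058) over 15. Its neighbour on chromosome 12, Rsad2, which encodes viperin, passed in neither (log2 -0.74 and -0.93, adjusted p = 0.31 and 0.14). The Mx genes encode dynamin-like GTPases that block viruses and are defective in many laboratory mice, and the annotation lists Mx2 as a polymorphic pseudogene. Mx2 was lower in both kinds of tumour (log2 -1.11, adjusted p = 0.045, and -0.90, adjusted p = 0.046) and Mx1 in K5/K14 tumours (log2 -0.75, adjusted p = 0.046). All 3 calls lay close to the threshold. The Mx1 call was lost without skin 2, 3 or 4, Ivl 4 or 5, K5 2 to 5 or K14 2 to 4 (adjusted p 0.051 to 0.15). The Mx2 call in Ivl tumours was lost without any skin library, Ivl 1, 4, 5 or 6, K5 3 or 4 or K14 2 to 4 (0.05 to 0.14), and that in K5/K14 tumours without any skin library, Ivl 5, K5 2 to 5 or K14 3 or 4 (0.052 to 0.16). Bst2 had 2.85, 3.88, 10.1 and 11.9 CPM in skin, 4.74, 5.36 and 11.6 in Ivl tumours and 6.99, 8.72 and 13.3 in K5/K14 tumours (log2 -0.20 and 0.40, neither past the threshold).

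The IFIT proteins bind viral RNA and translation factors, and their genes lie side by side on chromosome 19. Over all 19 libraries none of Ifit1, Ifit2 and Ifit3 passed in either comparison with skin by edgeR, and none had an unadjusted p under 0.05. With those 15 libraries alone Ifit3 passed in Ivl tumours (log2 -1.64, adjusted p = 0.014), a call lost without Ivl 4 (0.059). Ifit2, the highest of them in CPM, had 4.58, 3.25, 8.16 and 8.55 in skin, 3.14, 4.81 and 7.75 in Ivl tumours and 2.83, 4.48 and 6.53 in K5/K14 tumours. Reads can be shared between these related genes, as between Oas1a, the Gbp genes and Trim30a and their copies, and their values are uncertain to that degree.

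Parp14, Dtx3l and Parp9 are neighbours on chromosome 16 (35832874 to 35972605, GRCm38). PARP14 and PARP9 belong to the ADP-ribosyltransferase family and DTX3L is the ubiquitin ligase that pairs with PARP9. Parp14 had 20.4, 32.0, 38.6 and 42.3 CPM in skin, 7.52, 14.0 and 26.8 in Ivl tumours and 13.2, 17.1 and 31.7 in K5/K14 tumours. It had the smallest adjusted p of the members in Ivl tumours (log2 -1.02 ± 0.30, edgeR adjusted p = 0.013), a call that held without any single library. In K5/K14 tumours it was -0.80 (adjusted p = 0.016), lost without skin 3 (0.052) or skin 4 (0.067), and over the 15 libraries it was -1.34 ± 0.222 (adjusted p = 0.00014) and -0.93 ± 0.166 (adjusted p = 0.00019).

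Dtx3l had 13.6, 22.8, 28.3 and 31.4 CPM in skin and 10.4, 12.4 and 16.5 in K5/K14 tumours (log2 -0.92 ± 0.243, edgeR adjusted p = 0.0035), with skin 1 among the tumours. In Ivl tumours it had 8.88, 12.2 and 26.6 (log2 -0.69, adjusted p = 0.051). Parp9 had 11.5, 21, 22.9 and 27.7 CPM in skin and differed little in either (log2 -0.20 and 0.071, 95% intervals -0.577 to 0.186 and -0.287 to 0.429). Parp9 and Dtx3l share 458 exon bases on opposite strands, and whether strand was used in counting is not stated in the sources used here.

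The GBP genes encode guanylate-binding GTPases that attack the vacuoles of intracellular microbes. Gbp2 had 6.07, 16.0, 24.7 and 29.2 CPM in skin, 2.21, 6.41 and 17.1 in Ivl tumours and 3.37, 6.01 and 18.2 in K5/K14 tumours. It was lower in K5/K14 tumours (log2 -1.31 ± 0.467, edgeR adjusted p = 0.022), and in Ivl tumours the log2 of -1.33 had an adjusted p of 0.052. Gbp3 was lower in Ivl tumours (log2 -1.25, adjusted p = 0.033) and was at -0.86 in K5/K14 tumours (adjusted p = 0.068). Over the 15 libraries both genes were lower in both (log2 -1.58 and -1.73 in Ivl tumours, -1.58 and -1.02 in K5/K14 tumours). The Gbp2 call over 19 libraries was lost without skin 3 or 4 (adjusted p 0.065 and 0.094), and that of Gbp3 without skin 3 or 4 or Ivl 1, 4, 5 or 6 (0.058 to 0.11). In the 15 libraries Gbp2 in Ivl tumours was lost without Ivl 5 (0.055).

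The chemokines Cxcl9 and Cxcl10 recruit T cells through CXCR3. Cxcl9 had 0.936, 2.47, 4.66 and 7.80 CPM in skin, 0.328, 0.591 and 3.45 in Ivl tumours and 0.0760, 0.583 and 8.13 in K5/K14 tumours. It was the most uneven member, with K5 1 at 8.13 CPM and the other 4 K5 tumours at 0.0760 to 0.583, and K5 2 held 3 counts. It passed in no comparison (log2 -1.86 ± 1.03 in Ivl tumours and -1.04 ± 0.93 in K5/K14 tumours, edgeR adjusted p = 0.15 and 0.33). Cxcl10 passed in K5/K14 tumours over the 15 libraries (log2 -1.42, adjusted p = 0.0080) and not over all 19 (-1.05, adjusted p = 0.077). Cd274, which encodes the checkpoint ligand PD-L1, had 2.68, 9.07, 6.5 and 6.0 CPM in skin and 2.1, 2.86 and 3.77 in K5/K14 tumours. It was lower there (log2 -1.06 ± 0.289, adjusted p = 0.0043), with skin 1 among the tumours. In Ivl tumours it had 1.61, 3.96 and 6.26 (log2 -0.59, adjusted p = 0.14). Of 10 T cell markers, 5 were lower and 1 higher in K5/K14 tumours over all 19 libraries, where 38.9% of all genes were lower and 23.2% higher. The summed CPM of the list without Trbc2 was 7.53 to 39 in skin and 4.48 to 17.4 in these tumours, and Trbc2 itself had 4.96 to 14.2 and 38.9 to 76.2.

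The last members have varied roles. Trim30a, a TRIM family regulator of inflammatory signalling, was lower in K5/K14 tumours (log2 -1.19, edgeR adjusted p = 0.017) and Xaf1, an antagonist of the apoptosis inhibitor XIAP, in Ivl tumours (log2 -0.84, adjusted p = 0.039). The first call was lost without skin 3 or 4 (0.057 and 0.12) and the second without skin 2, 3 or 4 or Ivl 1, 4, 5 or 6 (0.07 to 0.088). Ifi44 and Rtp4 passed only in Ivl tumours over the 15 libraries (log2 -1.46 and -1.59, adjusted p = 0.0072 and 0.0080). In K5/K14 tumours both were near skin (log2 0.020 and 0.055 over 19 libraries). Ifi35 had 7.19, 13.3, 12 and 14.6 CPM in skin, 10.8, 11.9 and 16.0 in Ivl tumours and 9.49, 12 and 17.5 in K5/K14 tumours, and its 95% intervals of -0.311 to 0.505 and -0.257 to 0.505 left out a 2-fold difference. Ifi35 and Cd274 share exon bases with antisense genes (290 and 511), and Rtp4 shares 296 with a transcript on its own strand.

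The tumour groups were also compared with each other, a contrast in which cell of origin, agent, site and time to onset go together. Over all 19 libraries no member passed between Ivl and K5/K14 tumours by edgeR (2.36% of all genes did). DESeq2 called 1 lower member, among 2161 genes called in all (6.75%). An unadjusted p under 0.05 was found for 5 members (13.9%), against 21.1% of all genes. The median log2 difference was -0.11, against 0.11 over all genes. Isg15 was at -0.70 (95% interval -1.19 to -0.212, adjusted p = 0.12) and Oasl1 at 1.33 (0.301 to 2.35, adjusted p = 0.15). Rtp4, which encodes a receptor-transporting chaperone, and Ifi44 were at -0.86 and -0.83.

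With 15 libraries again no member passed (0.41% of all genes did), 13 had an unadjusted p under 0.05 (36.1%, against 11.3% of all genes), and 32 of 36 were below 0 (88.9%, against 46.6% of all genes). For 8 members, Ifih1, Ddx58, Zbp1, Irf7, Isg15, Bst2, Ifi44 and Rtp4, the 3 Ivl tumours lay below all 8 K5/K14 tumours (22.2%, against 2.53% of all genes). Among these, the difference was -1.61 ± 0.419 for Rtp4, -1.42 ± 0.375 for Ifi44 and -0.87 ± 0.227 for Irf7, each with an adjusted p of 0.12, and -0.94 ± 0.307 for Isg15 (adjusted p = 0.23). Rtp4 had 1.27 to 2.04 CPM in these Ivl tumours and 3.26 to 6.84 in K5/K14 tumours. Ivl 3, in the set of 4, had 6.66 CPM of Rtp4, so the gap was not present over all 19 libraries.

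**Figure D4:**
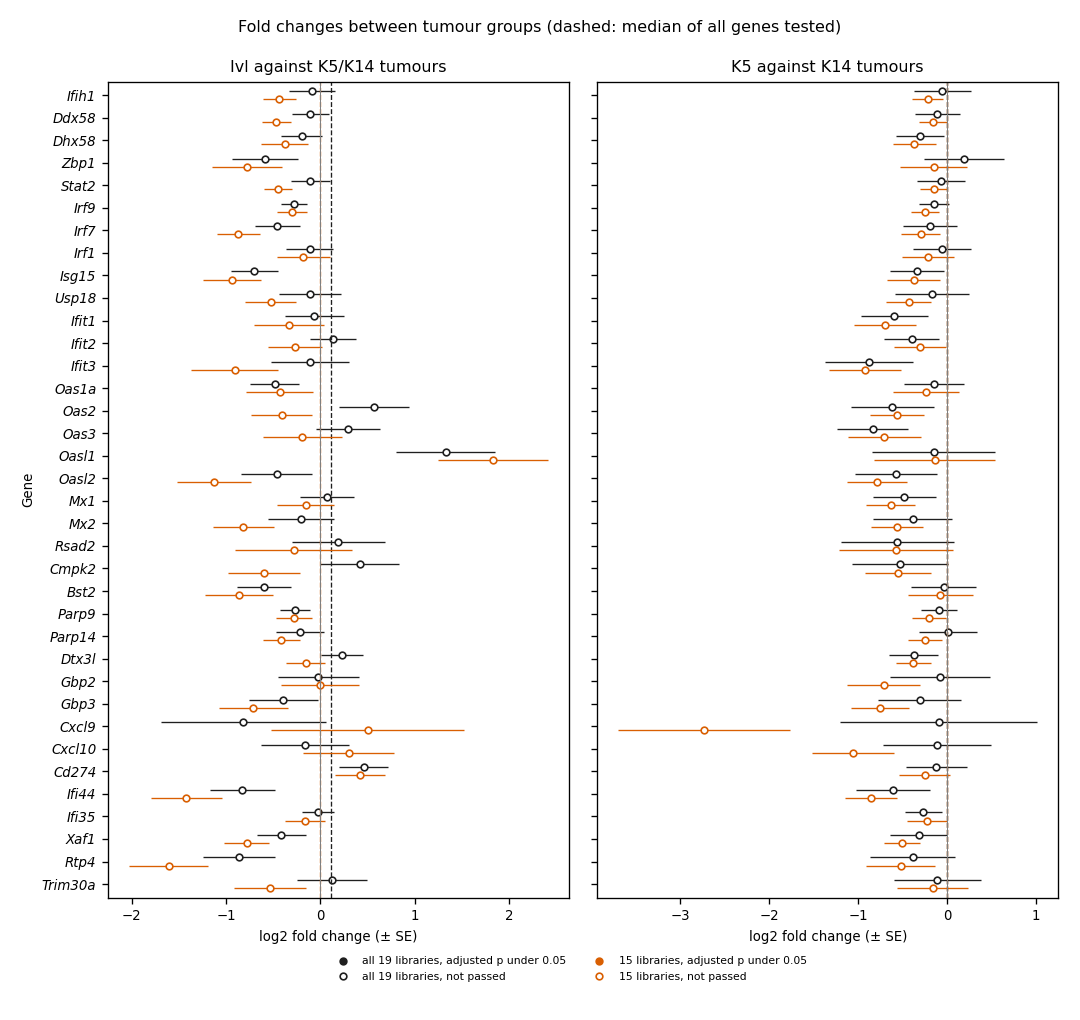
Log2 fold change (x axis, ± SE) of each member (rows) between Ivl and K5/K14 tumours (left) and between K5 and K14 tumours (right), over all 19 libraries (black) and the 15 libraries (orange); filled points would have an adjusted p under 0.05 and dashed lines mark the median of all genes. No point is filled, and over the 15 libraries all 36 members lie left of 0 in K5 against K14 tumours.

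K5 and K14 tumours were compared to see whether they could be merged. No member passed over all 19 libraries by edgeR (0.0% of all genes did), and none had an unadjusted p under 0.05, against 6.07% of all genes. DESeq2 called 174 of all genes and no member. The median of the members was -0.23 against 0 over all genes, 34 of 36 (94.4%) were below 0, and every K5 tumour lay below every K14 tumour for Dtx3l alone (2.78% of members, against 2.4% of all genes). Among the 15 libraries no member passed (0.0532% of all genes did) and 8 had an unadjusted p under 0.05 (22.2%, against 10.1% of all genes). All 36 were below 0, against 49.3% of all genes, with a median of -0.38. In 9 members (25%, against 3.71% of all genes) the 4 K5 tumours lay below the 4 K14 tumours. Members share their libraries and moved together, so these counts are not 36 separate observations. Cxcl9 differed by -2.74 ± 0.967 (adjusted p = 0.38) and Ifi44 by -0.85 ± 0.291 (adjusted p = 0.36).

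Other genes of the pathway were read from a list of 66, of which 59 were in the table and 57 were tested. Of the 11 interferons listed, 5 were in the table and 3 were tested. The listed Ifna genes, Ifnl2 and Ifnl3 were not in the table, so nothing is known here of their levels. Among the interferons in the table, Ifnb1 had at most 2 counts in any library, Ifne at most 3 and Ifng at most 13. Ifnk, the keratinocyte interferon, had 46, 50, 27 and 23 counts in skin and 0 to 25 in tumours (log2 -1.54 and -1.51, neither past the threshold). Ifnz, a type I interferon of mice, had 8, 7, 9 and 13 counts in skin and was lower in K5/K14 tumours (log2 -2.85, edgeR adjusted p = 0.011). Ifnb1 and Ifne did not exceed the floor of 3 counts in any library, so a difference in them was not detectable at this depth.

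Of 6 receptor chains only Il10rb, shared by interferon lambda and interleukin receptors, passed. It was higher in Ivl tumours (log2 0.71, edgeR adjusted p = 0.030) and K5/K14 tumours (0.83, adjusted p = 0.0047). Ifnar1 was close to skin in both (log2 -0.084 and 0.099, 95% intervals -0.347 to 0.179 and -0.147 to 0.346). Ifnar2, Ifngr1, Ifngr2 and Ifnlr1 did not pass (log2 -0.38 to 0.34). Jak1 and Jak2 were higher in K5/K14 tumours (log2 0.47, adjusted p = 0.012, and 0.46, adjusted p = 0.023), and Tyk2 was lower over the 15 libraries in both kinds of tumour (adjusted p = 0.016 and 0.014).

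Among 12 genes of nucleic acid sensing and interferon induction, 3 were higher and 1 lower in Ivl tumours, and 4 and 2 in K5/K14 tumours, with 20.4% and 15.5%, and 23.2% and 38.9%, of all genes. Myd88, the adaptor of most Toll-like receptors, had 17.5 to 30.7 CPM in skin, 38.4 to 74.2 in Ivl tumours and 58.3 to 83.5 in K5/K14 tumours, without overlap (log2 1.34 and 1.59, edgeR adjusted p = 3.1e-05 and 2.4e-06). Cgas, the sensor of cytosolic DNA, was higher in Ivl tumours (log2 1.1, edgeR adjusted p = 0.00024) and Tbk1, the kinase of IRF3, in K5/K14 tumours (0.41, adjusted p = 0.00031). For both genes every tumour of either kind lay above every skin library. Cgas had 4.19 to 5.47 CPM in skin, 8.23 to 13.8 in Ivl and 6.94 to 12.3 in K5/K14 tumours. Tbk1 had 29.6 to 32.8, 35.2 to 41.0 and 36.6 to 44.4 CPM in the same order. Tlr3, a receptor of double-stranded RNA, was lower in K5/K14 tumours (-0.96, adjusted p = 0.0059). Of 8 negative regulators 3 were higher in both, among them Socs1 in Ivl tumours (log2 1.29, adjusted p = 0.0021) and Socs3 in K5/K14 tumours (2.62, adjusted p = 5.2e-05), which block cytokine receptors.

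A further 24 induced genes that are not members had 2 higher and 6 lower in Ivl tumours, and 6 higher and 11 lower in K5/K14 tumours. Of all genes 20.4% and 15.5% were higher and lower in Ivl tumours, and 23.2% and 38.9% in K5/K14 tumours. Higher in both were Ifitm1, an antiviral membrane protein (log2 2.48, edgeR adjusted p = 0.0027, and 2.83, adjusted p = 0.00047), and Trim25, a ubiquitin ligase of RNA sensing (0.68, adjusted p = 0.0027, and 0.53, adjusted p = 0.0059). Lower examples were Uba7, the activating enzyme of ISG15 (log2 -1.46, edgeR adjusted p = 0.0049), Helz2 (-0.94, adjusted p = 0.017) and Lgals3bp (-1.57, adjusted p = 0.018) in Ivl tumours, and Herc6, a ligase that attaches ISG15 in mice (-1.50, adjusted p = 0.0018), and Samd9l (-1.53, adjusted p = 0.0058) in K5/K14 tumours. Between the tumour groups none of the 57 passed by edgeR over either set of libraries.

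**Figure D5:**
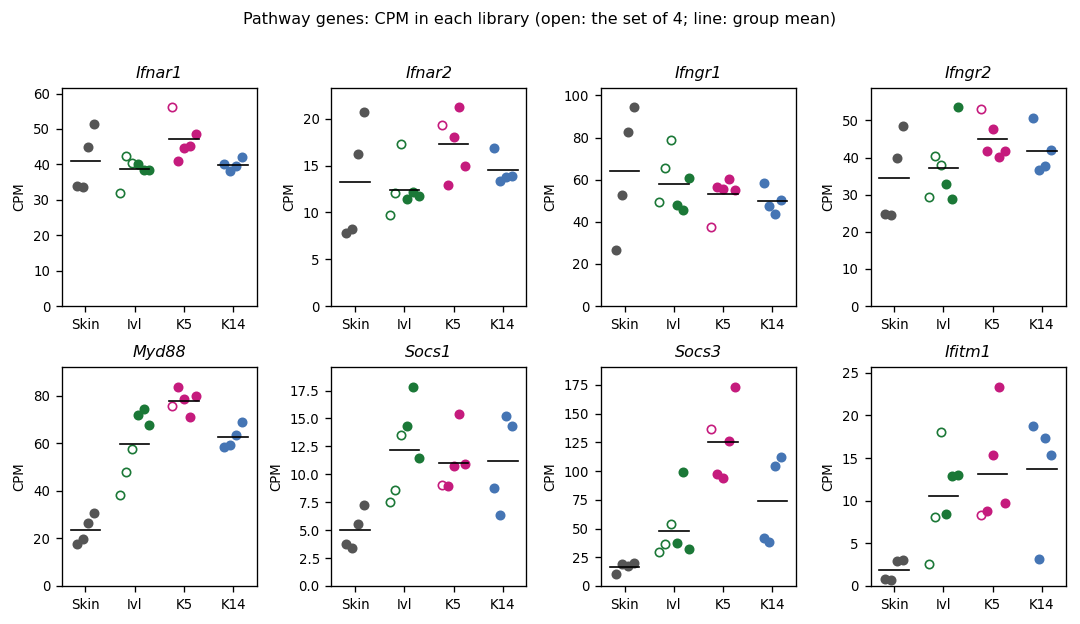
CPM (y axis, linear from 0) of Ifnar1, Ifnar2, Ifngr1, Ifngr2, Myd88, Socs1, Socs3 and Ifitm1 in each library by group; open points are the set of 4 libraries and lines are group means. Myd88 points of all tumours lie above skin, while the 4 receptor genes overlap with skin in every group.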

How the data were processed

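Bulk RNA-seq of 15 squamous cell carcinomas and 4 normal skin samples was analysed at the gene level. Per the submitters' processing notes and the methods of the study, reads were checked with FastQC 0.11.8, trimmed with Trim Galore, aligned with HISAT2 2.1.0 to GRCm38 and counted with featureCounts (Subread 1.6.3). The deposited values are estimated counts, since the authors adjusted the raw counts for sequencing batch with ComBat-seq before deposit. They are whole numbers, and their precision cannot be read as that of raw reads. Whether strand was used in counting is not given in the sources used here. All 19 columns were used, and 0 were left out.

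The tests covered the 32031 genes that reached 5 counts in some library, and 2776 were dropped. edgeR 4.0.16 (R 4.3.3) was fitted with TMM scaling and the robust quasi-likelihood test, with p-values adjusted by Benjamini-Hochberg over all genes tested. Comparisons with skin and of Ivl with K5/K14 tumours came from a fit with 3 groups, and K5 against K14 from a fit with 4. The fit was repeated over 15 libraries, tested on simulated data, and rerun with the alternatives of the closing section, DESeq2 1.42.0 among them. Positions and exon lengths came from GENCODE M21, which matched 34694 of the 34807 identifiers. All 36 members could be named by role. Values in every skin library, with the lowest, median and highest in the tumours, were given for up to 3 members per direction and comparison with the smallest adjusted p, and for the member of each role with the highest mean CPM. Further members given in full, such as Usp18, Cd274 and Parp9, were chosen after their values were seen. Of the other pathway genes, the ligands, receptors and kinases and up to 3 per direction and comparison were named, except for an item that is not reported here. Members, gene lists and tests were chosen with earlier results of these data known. Same-numbered libraries of different groups did not deviate together, and numbers were not treated as pairs. No 2 libraries of a group agreed within sampling noise.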

Additional observations from a re-analysis of the deposited data

Results flagged for a closer look

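Within groups of 4 to 6 libraries, 144 groups of member values were searched for a library set apart from the rest (Dixon's criterion at the 95% level), and 13 values in 11 genes were found. Chance gives about 1 in 20 groups. In K5 1, of the set of 4 libraries, Ifih1 stood at 15.1 CPM against 8.92 to 9.71 in the other K5 tumours, Usp18 at 3.43 against 1.52 to 1.83, and Oas1a at 3.02 against 2.20 to 2.35. In Ivl 3, of the same set, Bst2 stood at 11.6 against 4.74 to 5.60 and Parp9 at 25.1 against 15 to 17.8. K14 1 was high for Oasl2 (11.7 against 6.66 to 6.93), Mx1 (2.23 against 1.54 to 1.63) and Parp9 (26.4 against 20.9 to 21.5). Low values were Rsad2 in K5 2 (0.304 against 1.26 to 1.63), Cxcl10 in Ivl 1 (0.323 against 1.05 to 1.38) and in K14 3 (0.431 against 1.36 to 1.64), Oas2 in skin 2 (4.64 against 5.63 to 5.68) and Xaf1 in skin 1 (3.53 against 5.41 to 5.50).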

How the results depend on the processing

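No fold change of a called member reversed under any alternative run. In Ivl tumours against skin, the count of lower members was 9 and became 16 with DESeq2 size factors, 18 with DESeq2, 16 with the filterByExpr filter, 17 with protein-coding genes only, 20 within the 15 libraries and 19 with the set of 4 as a covariate. Of all genes tested, 15.5% were lower in the main fit, and 21.3%, 17.7%, 19.4%, 20.6%, 32.7% and 25.2% in these alternatives, in the same order. The higher member, Oasl1, was lost with DESeq2 size factors, filterByExpr and protein-coding genes only, which left 0. Leaving out single libraries gave 2 to 20 lower and 0 to 1 higher members in Ivl tumours, with 14 without skin 1, 3 without skin 2, 3 or 4, 5 without Ivl 1, 15 without Ivl 2, 20 without Ivl 3, 2 without Ivl 4, 5 or 6 and 14 without K14 1. In K5/K14 tumours leaving out single libraries gave 7 to 17 lower and 0 to 2 higher. The 7 came without skin 3 or 4 (19.4%, against 36.3% and 36.8% of all genes) and the 17 without skin 1 (47.2%, against 34.4%). Within the 15 libraries leaving out single libraries gave 18 to 27 lower and 0 to 1 higher in Ivl tumours, and 14 to 21 lower and 1 to 2 higher in K5/K14 tumours. With all 15 in the fit, 32.7% of all genes were lower and 22.2% higher in Ivl tumours, and 42.3% and 23.9% in K5/K14 tumours. The shares of all genes without each single library are not given here, so these counts cannot be set against genes at large. Between Ivl and K5/K14 tumours DESeq2 called 1 lower member, and leaving out single libraries gave 0 to 0 over 19 libraries and 0 to 1 lower over 15 (1 without skin 1). K5 against K14 gave 0 throughout. With the replicate number as a block, 0 members were lower in Ivl tumours (7.04% of all genes were) and 8 in K5/K14 tumours (22.2%, against 34.8% of all genes). Within the 15 libraries and with this block, 11 were lower in Ivl tumours and 2 higher in K5/K14 tumours, with the share of all genes not given here. Over 25 same-numbered pairs the correlation of deviations ran from -0.503 to 0.426, with 9 over 0.1, so the samples shared only a number. The causes of these changes were not tested. The lowest count of a member was 3, for Cxcl9 in K5 2.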
